A study of Mus musculus with 12 samples.

Results

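Adipocyte precursor cells of the perigonadal (visceral) fat were compared between male C57Bl6/J mice on a standard diet (SD, Harlan 2018S) and mice fed a diet of 60% lard (HFD, Research Diets D12492) for 3 days, with RNA sequencing of the sorted cells. The comparison uses 6 of the 12 libraries of the series, VWAT_SD replicates 1 to 3 and VWAT_HFD replicates 1 to 3, and all 14398 gene entries of the count table. The other 6 libraries, from inguinal subcutaneous fat (SWAT) of the same diets, served to estimate the spread between libraries and to test the difference between depots. Mice were 6 to 8 weeks old, and each library pooled tissue of 3 mice. Cells were sorted as CD45- and CD31-, CD29+, CD34+ and Sca1+, both CD24- and CD24+. SD samples are labelled Day 0 and HFD samples Day 3, so the day of collection cannot be told apart from the diet. No genotype or transgene is named.

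Adipocyte precursors are fibroblast-like stromal cells that lie along blood vessels, build the collagen and proteoglycan matrix of fat, and can divide and mature into fat cells. They also act on their neighbours by secreting chemokines, growth factors and matrix proteins, and they read their surroundings through integrins, growth factor receptors, G protein-coupled receptors and nuclear receptors. Transcription factors such as the immediate-early genes, the NF-kB family and the E2F family tie these signals to gene programs, and the enzymes of a cell set which building blocks and lipid mediators it makes.

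The 6 libraries held 41665608 to 56094076 gene counts, and the 3 entries that name no gene held 23.6 to 28.1% of all counts. Levels are counts per 1000000 gene counts (CPM) scaled by edgeR's TMM factors. Values of a group are printed in the order of replicates 1, 2 and 3. Markers of the gate and of precursors summed to 36800 to 40700 CPM in SD and 45800 to 80100 CPM in HFD, and all 17 of them passed the filter on low counts. Without Col3a1, the most abundant, they summed to 21900 to 24300 CPM in SD and 22800 to 30100 CPM in HFD. Of the 17, 5 rose (Thy1, Col3a1, Col1a1, Lum and Itgb1) and 0 fell, and with library size alone as scaling 4 rose and 3 fell. The calls of Col1a1 and Itgb1 were lost in 5 and 6 of 20 alternative runs (adjusted p up to 0.129 and 0.139). Ptprc, which encodes CD45, was at 0.306, 0.656 and 0.498 CPM in SD and 0.286, 0.401 and 0.129 CPM in HFD, and Pecam1, which encodes CD31, was at 5.14, 6.01 and 2.38 and 8.66, 5.7 and 1.44 CPM. The gate gene Cd24a was low throughout, at 2.16, 3.13 and 2.36 CPM in SD and 4.33, 3.19 and 1.72 CPM in HFD. Summed leukocyte markers (16 of 29 tested) ranged from 18.4 to 32.1 CPM in SD and from 12.1 to 20 CPM in HFD, and 1 of them, Cd14, fell. None of 16 endothelial or 7 mesothelial markers tested passed in either direction in edgeR. Tek made up most of the endothelial sum and Wt1 most of the mesothelial sum. The other 15 endothelial markers summed to 18.4 to 42.5 CPM in SD and 12.2 to 55.7 CPM in HFD, and the other 6 mesothelial markers to 3.85 to 6.11 and 2.09 to 7.95 CPM.

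VWAT_HFD replicate 3 stood apart from the other HFD libraries. In a principal component analysis of the 6 libraries, the first component (62.6% of the variance) placed the SD libraries at -26.3, -25.3 and -34.0 and HFD replicates 1 and 2 at 38.2 and 47.6. Replicate 3 lay between them at -0.128, and it was the lowest on the second component (16.0%) at -34.5. Counts of changed genes are therefore given with and without it, and its value is printed beside the others throughout.

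After HFD, 1232 of 14266 genes tested rose (8.64%) and 996 fell (6.98%), 2228 in all (15.6%), at an adjusted p under 0.05 in edgeR's quasi-likelihood test. Of these, 421 rose and 171 fell at least 2-fold. Without HFD replicate 3, 2137 of 14324 genes rose (14.9%) and 2129 fell (14.9%). The number that changed was 4266 without HFD replicate 3, and it was 757 without HFD replicate 2, 967, 1269 and 1394 without SD replicates 3, 2 and 1, and 1322 without HFD replicate 1. With library size alone as scaling, 799 genes rose and 1822 fell. A total of 2170 genes passed in the same direction with and without replicate 3, 58 only with all libraries and 2075 only without replicate 3. The SD and HFD libraries did not overlap for 33% of all genes tested (4710), and this held for 1152 of the genes that rose and 967 of those that fell. Most genes named below were chosen among those without overlap, so a lack of overlap given for them follows from that choice. In bulk RNA, a lower level may come from fewer cells of a type or from less RNA per cell, and these cannot be told apart. The p-values measure the spread between pooled libraries, and an exact permutation test of 3 against 3 libraries cannot go below 0.1.

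Secreted factors, receptors, transcription factors and enzymes were described through 49 lists with 2214 genes tested, of which 331 rose and 193 fell (23.7%, against 15.6% of all genes tested). The lists and their members were chosen with earlier results of these data known. A share above that of all genes may therefore reflect this choice, and was not tested. Among 493 secreted factors, 87 rose and 55 fell, and the median log2 change was 0.02. Receptors gave 49 that rose and 24 that fell of 406, transcription factors 56 and 25 of 423, and enzymes 143 and 89 of 906. Their median log2 changes were 0.05, 0.02 and 0.03, against -0.02 for all genes tested. Without replicate 3 the counts that rose and fell were 127 and 85 for secreted factors, 70 and 52 for receptors, 70 and 58 for transcription factors, and 200 and 153 for enzymes. TMM scaling centres the genes near no change. Library size alone moved the median over all genes to a log2 change of -0.13, and in 15 of the 34 lists in which more genes rose than fell the balance turned. These were the lists of growth factors, guidance molecules, matricellular glycoproteins, protease inhibitors, receptor tyrosine kinases, G protein-coupled receptors, nuclear receptors, the helix-loop-helix, leucine zipper, homeobox, forkhead and zinc finger factors, glycerolipid and fatty acid enzymes, and RAS feedback proteins.

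**Figure D1:**
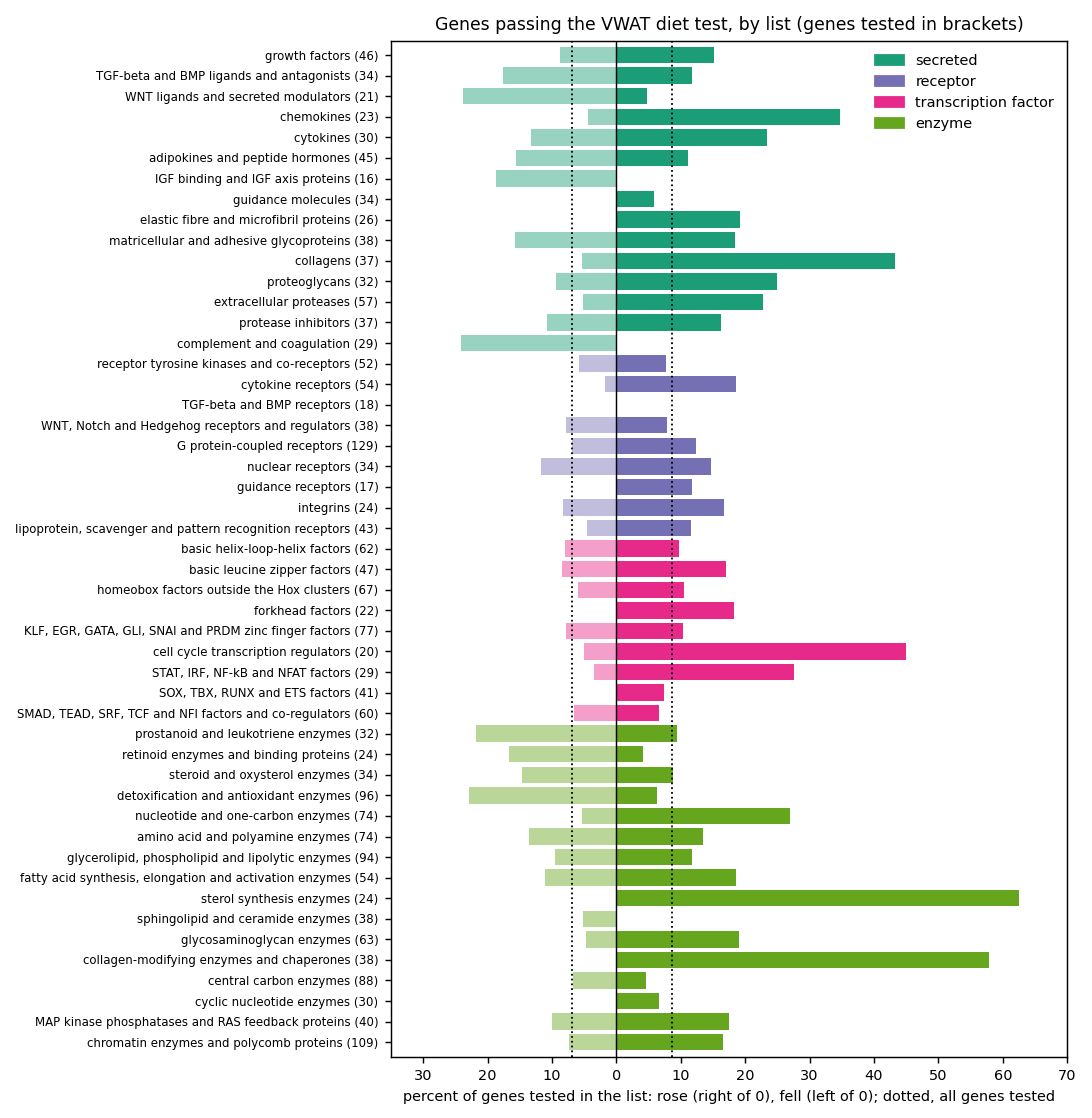
Share of the genes tested in each list that rose (right of 0) or fell (left of 0) after HFD in VWAT precursors, in percent; colours mark the class, the bracket gives the genes tested, and dotted lines mark all genes tested (8.64% rose, 6.98% fell). Sterol synthesis (15 of 24) and collagen-modifying enzymes and chaperones (22 of 38) reach furthest to the right. Neither list has a member that fell, and complement and coagulation (7 of 29) reaches furthest to the left.

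Chemokines, the small proteins that call in leukocytes, leaned upward: 8 of 23 rose and 1 fell, with a median log2 change of 0.36. Cxcl3, a ligand of neutrophil receptors, was at 1.46, 1.95 and 1.27 CPM in SD and 12.4, 17 and 3.7 CPM in HFD (log2 change 2.83, SE 0.43, adjusted p 0.00152). Ccl7, a monocyte attractant, rose from 311, 298 and 245 to 1143, 1132 and 472 CPM (log2 change 1.69, SE 0.28, adjusted p 0.00221). In both genes all HFD libraries were above all SD libraries, and replicate 3 was the lowest of the HFD libraries. The neutrophil attractant Cxcl1 did the same at a higher baseline, with 1598, 1937 and 1781 CPM in SD and 3546, 3793 and 2453 CPM in HFD (log2 change 0.88, SE 0.18, adjusted p 0.00629). The member that fell was Cxcl12, the chemokine that holds blood stem cells and lymphocytes in their niches. Its level was 241, 258 and 263 CPM in SD and 188, 157 and 185 CPM in HFD (log2 change -0.52, SE 0.11, adjusted p 0.00953), and here replicate 3 did not stand apart. The call for Cxcl12 was lost when VWAT_HFD replicate 2 was left out (adjusted p 0.0595).

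Among 30 cytokines, 7 rose and 4 fell. Csf2, which encodes the growth factor GM-CSF of granulocytes and macrophages, was at 4.15, 2.41 and 2.42 CPM in SD and 19.9, 22.6 and 5.85 CPM in HFD (log2 change 2.42, SE 0.43, adjusted p 0.00344). All HFD libraries were above SD, and replicate 3 was nearer to SD than to the other HFD libraries. Lif, a cytokine of the interleukin-6 family, rose from 51.4, 53 and 52.9 to 105, 135 and 79.9 CPM (log2 change 1.02, SE 0.15, adjusted p 0.00133), with the SD libraries in a narrow band and replicate 3 the lowest of the HFD libraries. Tslp, an epithelial and stromal cytokine that acts on dendritic cells and type 2 lymphocytes, was at 8.95, 9.67 and 7.4 CPM in SD and 17.1, 16.8 and 15 CPM in HFD (log2 change 0.91, SE 0.16, adjusted p 0.00295). For Tslp, replicate 3 was close to the other HFD libraries. On the falling side, Tnfsf13b, which encodes the B cell survival factor BAFF, went from 10.8, 11.4 and 13.3 to 6.69, 6.3 and 9.4 CPM (log2 change -0.67, SE 0.15, adjusted p 0.0118). This call was lost without VWAT_SD replicate 3 or without either of HFD replicates 1 and 2 (adjusted p up to 0.0704).

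Growth factors moved both ways, with 7 of 46 that rose and 4 that fell, and 7 and 11 with library size alone. Gdnf, the ligand of the Ret receptor system that keeps neurons alive, was almost absent in SD, with 2, 2 and 1 counts, and had 26, 34 and 5 counts in HFD. The summed counts per library size were 13.4-fold higher in HFD (95% exact counting interval 5.45 to 42.6), and the gene passed with an adjusted p of 0.00499. Artn, another ligand of this family, moved the other way, with 65, 31 and 74 counts in SD and 28, 19 and 16 in HFD. Every HFD library had fewer Artn counts than any SD library. Its ratio of SD to HFD was 2.62 (1.95 to 3.56), with an adjusted p of 0.0155 that was lost without VWAT_SD replicate 3 or VWAT_HFD replicate 2 (up to 0.0744). Such intervals cover counting error only. Gas6, the ligand of the TAM receptor kinases that clear dying cells, fell from 209.6, 177 and 256 to 112, 103 and 140 CPM (log2 change -0.85, SE 0.22, adjusted p 0.0228), with no overlap of the groups. The Gas6 call was lost without VWAT_SD replicate 1 or 3 or without VWAT_HFD replicate 1 or 2 (adjusted p up to 0.115).

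Ligands and antagonists of TGF-beta and BMP gave 4 that rose and 6 that fell of 34, with a median log2 change of -0.21. Thbs1, a matricellular protein that can activate latent TGF-beta, rose from 1114, 1116 and 754 to 1958, 2631 and 2292 CPM (log2 change 1.21, SE 0.21, adjusted p 0.0027), and replicate 3 lay within the range of the other HFD libraries. The BMP antagonist Grem1 had 56, 25 and 30 counts in SD and 6, 6 and 7 in HFD, an SD to HFD ratio of 5.68 (3.47 to 9.78, adjusted p 0.00208). Fst, which binds and blocks activins, was at 151, 156 and 163 CPM in SD and 121, 108 and 110.2 CPM in HFD (log2 change -0.47, SE 0.09, adjusted p 0.00619). Both antagonists were lower in every HFD library than in any SD library. None of the 18 TGF-beta and BMP receptors tested passed in edgeR, and 1 passed without replicate 3 and 1 with DESeq2's size factors.

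WNT ligands and secreted modulators leaned downward, with 5 of 21 that fell and 1 that rose (median log2 change -0.19). Wnt5b went from 23.7, 22.1 and 27.9 to 18, 14.2 and 18.2 CPM (log2 change -0.55, SE 0.12, adjusted p 0.00795). Wnt5a, its close relative and like it a ligand of the non-canonical branch, was at 123, 139 and 130.2 CPM in SD and 72.5, 68.5 and 91.5 CPM in HFD (log2 change -0.75, SE 0.20, adjusted p 0.026). Rspo1, a secreted enhancer of WNT signalling, went from 40.9, 42.7 and 51.4 to 24.2, 23.9 and 35.7 CPM (log2 change -0.69, SE 0.16, adjusted p 0.0116). All 3 genes had no overlap of the groups, and HFD replicate 3 was the HFD library nearest to SD. The Wnt5b call held in every alternative. That for Rspo1 was lost without VWAT_SD replicate 3 or VWAT_HFD replicate 1 or 2 (adjusted p up to 0.072), and that for Wnt5a without any VWAT library other than HFD replicate 3 (up to 0.126).

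**Figure D2:**
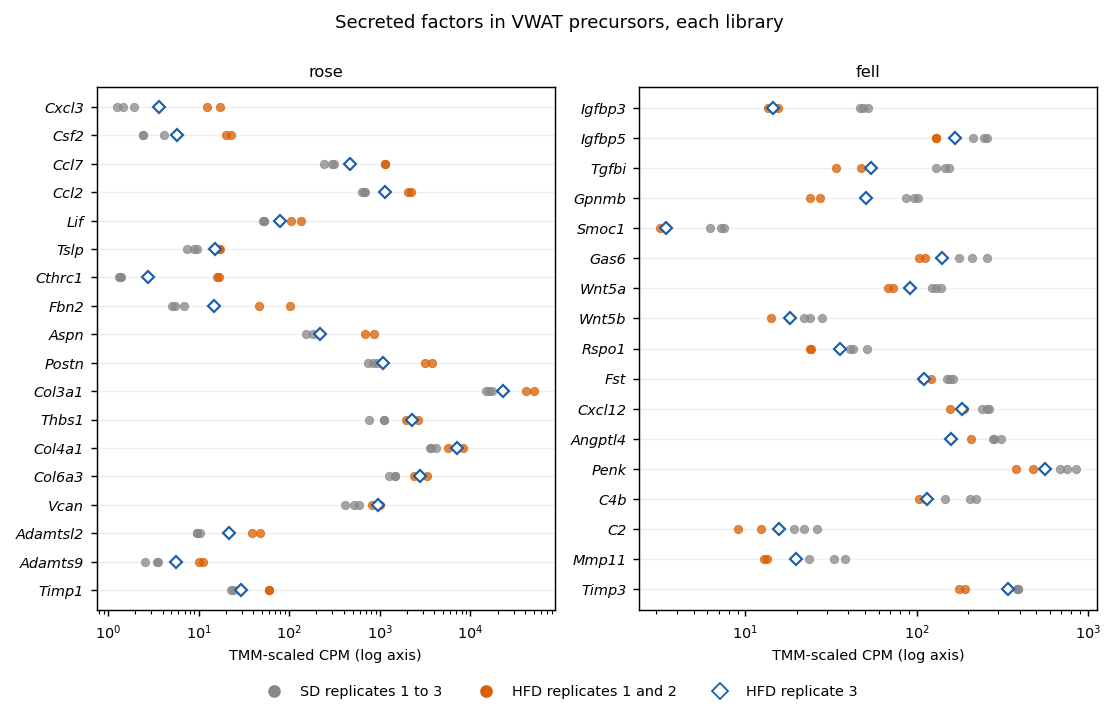
TMM-scaled CPM (log axis) of secreted factors in each library: grey circles, the 3 SD libraries; orange circles, HFD replicates 1 and 2; blue diamonds, HFD replicate 3. Replicate 3 lies between the SD libraries and the other HFD libraries for Cxcl3, Csf2, Cthrc1 and Timp1, and among the other HFD libraries for Thbs1, Col4a1, Col6a3, Vcan and Igfbp3.

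Genes of the extracellular matrix were common among the secreted factors that rose. Of 37 collagens, 16 rose and 2 fell (median log2 change 0.39). Proteoglycans gave 8 that rose and 3 that fell of 32, elastic fibre and microfibril proteins 5 and 0 of 26, and matricellular glycoproteins 7 and 6 of 38. With library size alone these counts were 14 and 4 for collagens, 5 and 4 for proteoglycans, 5 and 3 for elastic fibre proteins, and 6 and 9 for matricellular glycoproteins. Col3a1, a fibrillar collagen, was at 17400, 14980 and 16180 CPM in SD and 40660, 50070 and 22940 CPM in HFD (log2 change 1.23, SE 0.25, adjusted p 0.00686). Cthrc1, a secreted protein of activated fibroblasts, rose from 1.41, 1.38 and 1.31 to 16.8, 16 and 2.77 CPM (log2 change 3.12, SE 0.51, adjusted p 0.00204). Fbn2, a fibrillin of developing microfibrils, rose from 6.94, 5.52 and 5.04 to 46.3, 103 and 14.7 CPM (log2 change 3.23, SE 0.57, adjusted p 0.00321). In these 3 genes replicate 3 was above all SD libraries and below both other HFD libraries.

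Some collagen chains, picked after their values were seen, stood as high in replicate 3 as in the other HFD libraries. Col4a1, a chain of the collagen of basement membranes, was at 4171, 3681 and 3580 CPM in SD and 5689, 8183 and 7141 CPM in HFD (log2 change 0.88, SE 0.15, adjusted p 0.0024). Its partner chain Col4a2 was at 1912, 1726 and 1674 CPM in SD and 2693, 3898 and 3260 CPM in HFD (log2 change 0.89, SE 0.14, adjusted p 0.00166). Col6a3, a chain of beaded-filament collagen, was at 1464, 1469 and 1248 CPM in SD and 2364, 3308 and 2746 CPM in HFD (log2 change 1.01, SE 0.14, adjusted p 0.00107). For all 3, replicate 3 lay between HFD replicates 1 and 2. Another basement membrane chain, Col4a6, fell from 118, 101 and 139 to 71.1, 78 and 97.4 CPM (log2 change -0.54, SE 0.14, adjusted p 0.0211), with replicate 3 the closest to SD. The Col4a6 call was lost with the VWAT libraries alone and without VWAT_SD replicate 1 or 3 or VWAT_HFD replicate 1 or 2 (adjusted p up to 0.101). Over the 22 collagens that passed without replicate 3, the median share of the change seen in replicate 3 was 0.576. The large proteoglycan Vcan rose from 588, 525 and 418 to 823, 1015 and 954 CPM (log2 change 0.87, SE 0.14, adjusted p 0.00196), again with replicate 3 between the others. Against the direction of the collagens, Tgfbi, a matrix protein that binds integrins, fell from 154, 129 and 146 to 47.7, 33.8 and 54.5 CPM (log2 change -1.66, SE 0.18, adjusted p 0.000628). Smoc1, a BMP modulator of basement membranes, fell from 6.22, 7.19 and 7.53 to 3.42, 3.17 and 3.42 CPM (log2 change -1.06, SE 0.18, adjusted p 0.00228). Every HFD library of both genes, replicate 3 included, was far below every SD library.

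Among 57 extracellular proteases, 13 rose and 3 fell, and 9 and 5 with library size alone. Of the 13, 9 belonged to the ADAMTS and ADAMTS-like family, which cut or organise proteoglycans, procollagens and microfibrils. Adamtsl2 was at 10.3, 9.71 and 9.58 CPM in SD and 38.8, 47.5 and 21.7 CPM in HFD (log2 change 1.87, SE 0.21, adjusted p 0.000644). Adamts9, which cuts versican, was at 3.44, 3.56 and 2.55 CPM in SD and 11.2, 9.99 and 5.66 CPM in HFD (log2 change 1.5, SE 0.23, adjusted p 0.00165). All HFD libraries of both genes were above SD, and replicate 3 was the lowest of them. Mmp11, a matrix metalloprotease, fell from 38.3, 33 and 23.7 to 13.4, 12.9 and 19.6 CPM (log2 change -1.05, SE 0.20, adjusted p 0.00441). Here replicate 3 was just below the lowest SD library. Protease inhibitors gave 6 that rose and 4 that fell of 37, and 5 and 7 with library size alone. Tfpi2, which blocks plasmin and matrix proteases, rose from 42.2, 45.1 and 35.8 to 87.9, 76.6 and 62.7 CPM (log2 change 0.88, SE 0.13, adjusted p 0.00136), with all HFD libraries above SD.

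The complement and coagulation list had no member that rose and 7 of 29 that fell (median log2 change -0.18). C4b, a component of the classical pathway, fell from 222, 146 and 204 to 112, 104 and 115 CPM (log2 change -0.79, SE 0.14, adjusted p 0.00373), and was lower in every HFD library than in any SD library. C3, the central component, was at 12000, 12290 and 13680 CPM in SD and 7409, 6958 and 10700 CPM in HFD (log2 change -0.60, SE 0.17, adjusted p 0.0356). Its call was lost without any VWAT library other than HFD replicate 3, without any of 3 SWAT libraries, and with the VWAT libraries alone (adjusted p up to 0.164). The list had 5 members that fell with DESeq2's size factors and 8 with library size alone.

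Of 16 genes of the IGF axis, 3 fell and none rose. Igfbp3, the main carrier of IGF in blood, was at 46.8, 51.9 and 48.6 CPM in SD and 15.6, 13.6 and 14.6 CPM in HFD (log2 change -1.75, SE 0.22, adjusted p 0.000793), with all 3 HFD libraries within a narrow band. Adipokines and peptide hormones gave 5 that rose and 7 that fell of 45. Angptl4, an inhibitor of lipoprotein lipase, fell from 278, 284 and 310.1 to 159.7, 207 and 159 CPM (log2 change -0.73, SE 0.15, adjusted p 0.00619). The opioid precursor Penk fell from 756, 689.5 and 857 to 476, 382 and 565 CPM (log2 change -0.69, SE 0.15, adjusted p 0.00867). Replicate 3 was among the low libraries for Angptl4 and the HFD library nearest to SD for Penk.

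The receptor of the lists with the lowest p was Ret, the receptor tyrosine kinase of the GDNF family. Its level was 20.9, 15.3 and 15.2 CPM in SD and 51.2, 61 and 70.9 CPM in HFD (log2 change 1.83, SE 0.15, adjusted p 0.000241), and replicate 3 was the highest library of all. Of its co-receptors, which bind the ligand and present it to Ret, Gfra2 rose from 11, 10.7 and 9.77 to 16.5, 17.8 and 16.4 CPM (log2 change 0.68, SE 0.12, adjusted p 0.00382). Gfra4 fell from 2.82, 3.24 and 4.38 to 1.63, 1.49 and 2.13 CPM (log2 change -0.99, SE 0.19, adjusted p 0.00488). Gfra1, the main partner of Gdnf, was at 0.119, 0.0635 and 0.222 CPM in SD and 0.169, 0.12 and 0.043 CPM in HFD and did not pass (adjusted p 0.757). The groups did not overlap for Ret, Gfra2 and Gfra4, and replicate 3 did not stand apart for Gfra2. In the whole list of receptor tyrosine kinases and co-receptors, 4 of 52 rose and 3 fell, shares close to those of all genes tested, and 4 and 7 with library size alone.

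Cytokine receptors leaned upward, with 10 of 54 that rose and 1 that fell (median log2 change 0.18). Tnfrsf23, a decoy receptor for the death ligand TRAIL, went from 4.46, 3.64 and 3.86 to 10.5, 13.2 and 7.03 CPM (log2 change 1.36, SE 0.20, adjusted p 0.00141). Tnfrsf12a, the receptor of the cytokine TWEAK, rose from 47.9, 48.5 and 50.3 to 100.2, 100.5 and 73.1 CPM (log2 change 0.90, SE 0.18, adjusted p 0.00666), with replicate 3 the lowest HFD library for both. Tnfsf12, which encodes TWEAK itself, was at 46.4, 52.6 and 58.7 CPM in SD and 39.8, 37.4 and 46 CPM in HFD (log2 change -0.36, SE 0.10, adjusted p 0.0346). Its HFD level in replicate 3 was just under the lowest SD library, and its call was lost without VWAT_SD replicate 2 or 3, VWAT_HFD replicate 1 or 2 or any of 3 SWAT libraries, and with the VWAT libraries alone (adjusted p up to 0.168). Il1rl1, the interleukin-33 receptor, had 8, 15 and 33 counts in SD and 211, 199 and 36 in HFD, an HFD to SD ratio of 8.2 (6.2 to 11, adjusted p 0.00503). In replicate 3 the Il1rl1 count was close to that of SD replicate 3. The member that fell was Cntfr, a receptor of ciliary neurotrophic factor, with 17.4, 22 and 19.3 CPM in SD and 11.3, 10.1 and 14.5 CPM in HFD (log2 change -0.71, SE 0.13, adjusted p 0.00355) and no overlap.

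Of 24 integrins, 4 rose and 2 fell. Itga5, which pairs with Itgb1 as the fibronectin receptor, rose from 217, 227 and 184 to 441, 413 and 358 CPM (log2 change 0.95, SE 0.14, adjusted p 0.00133). Cd44, the receptor of hyaluronan, was at 86.6, 83.4 and 58.5 CPM in SD and 154, 157 and 118 CPM in HFD (log2 change 0.91, SE 0.16, adjusted p 0.00295). All HFD libraries were above all SD libraries in both genes, and replicate 3 was the lowest of the HFD libraries. Of 129 G protein-coupled receptors, 16 rose and 9 fell, and 9 rose and 18 fell with library size alone as scaling. Cd97, an adhesion receptor, rose from 9.85, 9.37 and 8.86 to 17.7, 18.5 and 23.8 CPM (log2 change 1.09, SE 0.20, adjusted p 0.00334), and was highest in replicate 3. Ccrl2, a chemerin-binding receptor, rose from 10.3, 13.5 and 12.7 to 24.6, 28.7 and 17.7 CPM (log2 change 0.96, SE 0.18, adjusted p 0.00473) and was lowest there among the HFD libraries.

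Nuclear receptors gave 5 that rose and 4 that fell of 34, and 2 and 5 with library size alone. Nr4a2 and Nr4a3, orphan receptors induced within minutes of many stimuli, both rose. Nr4a2 went from 22.6, 32.8 and 34.3 to 96.4, 152 and 68.7 CPM (log2 change 1.83, SE 0.25, adjusted p 0.000958). Nr4a3 rose from 202, 264 and 267 to 402, 709 and 589.9 CPM (log2 change 1.22, SE 0.22, adjusted p 0.00392), and for Nr4a3 replicate 3 lay between the other HFD libraries. Rarg, a retinoic acid receptor, fell from 85.2, 82 and 85.2 to 51.2, 50.4 and 62.5 CPM (log2 change -0.62, SE 0.10, adjusted p 0.00189). Nr3c2, the mineralocorticoid receptor, fell from 8.57, 9.33 and 8.29 to 3.39, 3.07 and 6.32 CPM (log2 change -1.04, SE 0.23, adjusted p 0.0109). Replicate 3 was the HFD library nearest to SD for both, and the Nr3c2 call was lost without VWAT_HFD replicate 2 (adjusted p 0.061). Pparg, the master regulator of fat cell formation, was at 12.2, 17 and 14.4 CPM in SD and 13.5, 10.5 and 11.9 CPM in HFD and did not pass (adjusted p 0.25).

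**Figure D3:**
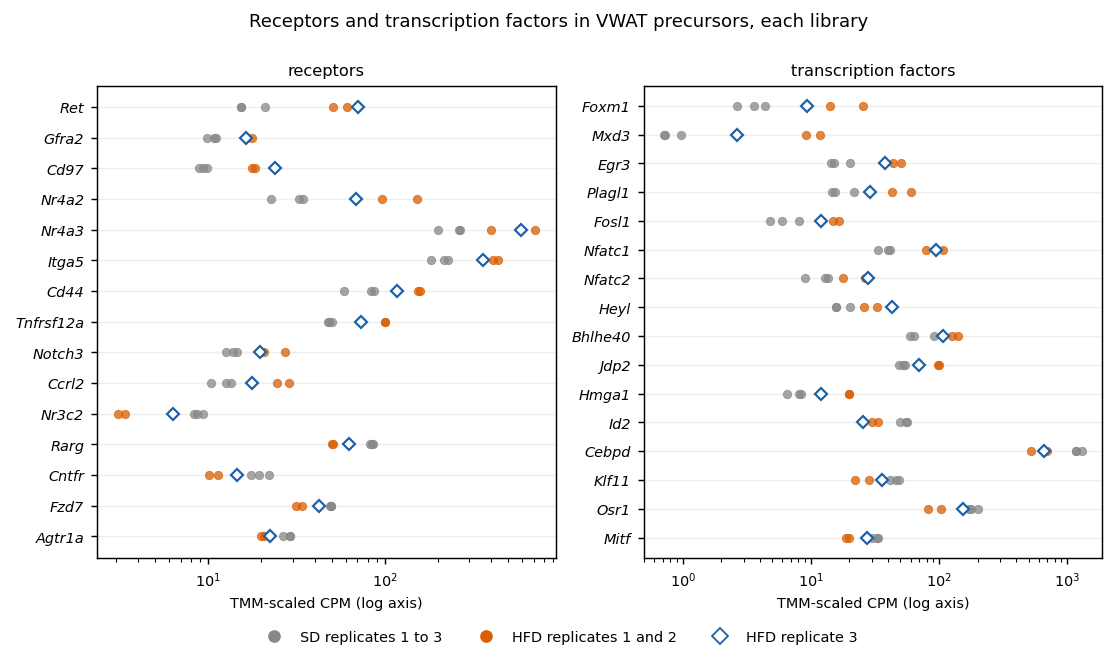
TMM-scaled CPM (log axis) of receptors (left) and transcription factors (right) in each library, with SD in grey, HFD replicates 1 and 2 in orange and HFD replicate 3 as blue diamonds. Replicate 3 is the highest library for Ret, Cd97, Nfatc2 and Heyl and the lowest for Id2, and lies between the SD libraries and the other HFD libraries for Mxd3, Foxm1 and Hmga1.

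Immediate-early and calcium-responsive transcription factors were split. Egr3, a zinc finger factor of the early growth response family, rose from 14.2, 20.3 and 15.2 to 43.6, 50.1 and 37.9 CPM (log2 change 1.41, SE 0.14, adjusted p 0.000604). Fosl1, an AP-1 subunit, rose from 4.76, 8.08 and 5.98 to 14.8, 16.7 and 12.1 CPM (log2 change 1.21, SE 0.23, adjusted p 0.00521), and all HFD libraries of both genes were above SD. The AP-1 subunit Fos was at 4630, 4642 and 4519 CPM in SD and 2239, 2716 and 3954 CPM in HFD (log2 change -0.63, SE 0.17, adjusted p 0.0244). Egr1, a relative of Egr3, was at 7330, 8021 and 6763 CPM in SD and 3567, 4183 and 6557 CPM in HFD (log2 change -0.63, SE 0.19, adjusted p 0.0415). For Fos and Egr1, replicate 3 was close to the SD level, and both calls were lost with the VWAT libraries alone and without any VWAT library other than HFD replicate 3 (adjusted p up to 0.115 and 0.175). The Egr1 call was also lost without any of 5 SWAT libraries and with a replicate block. Nfatc1, a factor moved to the nucleus by calcium and calcineurin, rose from 40.02, 41.3 and 33.1 to 79.4, 108 and 94.8 CPM (log2 change 1.30, SE 0.15, adjusted p 0.000793), with replicate 3 between the other HFD libraries.

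The STAT, IRF, NF-kB and NFAT list had 8 of 29 that rose and 1 that fell (median log2 change 0.23). Those that rose held Rel, Nfkb1, Nfkb2, Rela and Relb, the 5 DNA-binding subunits of NF-kB, the family that drives inflammatory genes. Nfkb2 was at 53.4, 55 and 51.9 CPM in SD and 88.1, 97.7 and 75.4 CPM in HFD (log2 change 0.70, SE 0.13, adjusted p 0.00399). Nfkb1 was at 124, 129.5 and 112 CPM in SD and 178, 204 and 159 CPM in HFD (log2 change 0.57, SE 0.11, adjusted p 0.00494). Relb rose from 30.2, 32.4 and 28.7 to 42.2, 48.7 and 39.6 CPM (log2 change 0.51, SE 0.10, adjusted p 0.0043). All HFD libraries were above all SD libraries for these genes. Rel and Rela passed as well (adjusted p 0.0197 and 0.0278), but lost their calls without VWAT_SD replicate 1 or 3 or VWAT_HFD replicate 2 (up to 0.0889 and 0.141). Rel also lost it without VWAT_HFD replicate 1, and Rela with library size alone and with the VWAT libraries alone.

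Among basic helix-loop-helix factors 6 of 62 rose and 5 fell, and 4 and 8 with library size alone. Mxd3, a MAX partner tied to the cell cycle, was at 0.731, 0.973 and 0.72 CPM in SD and 9.18, 11.8 and 2.67 CPM in HFD (log2 change 3.29, SE 0.45, adjusted p 0.000958), with replicate 3 between SD and the other HFD libraries. Heyl, a target of Notch signalling, rose from 20.02, 15.8 and 15.8 to 25.9, 32.8 and 42.9 CPM (log2 change 0.98, SE 0.21, adjusted p 0.00867), highest in replicate 3. Id2, an inhibitor of other helix-loop-helix factors, fell from 56.4, 49.9 and 55.3 to 33.2, 30.1 and 25.3 CPM (log2 change -0.87, SE 0.11, adjusted p 0.000869), lowest in replicate 3. Cebpd, a leucine zipper factor of early fat cell differentiation, fell from 1175, 1294 and 1181 to 701, 523 and 662 CPM (log2 change -0.95, SE 0.13, adjusted p 0.000958), with no overlap. Its later relative Cebpa was at 48.3, 56.1 and 49.5 CPM in SD and 45, 42.2 and 42.9 CPM in HFD without passing (adjusted p 0.142). Id2 and Cebpd held their calls in every alternative.

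Of 20 cell cycle transcription regulators, 9 rose and 1 fell, the highest share among the factor lists. Foxm1, which drives genes of the G2 and M phases, was at 3.57, 4.4 and 2.66 CPM in SD and 14, 25.7 and 9.4 CPM in HFD (log2 change 2.21, SE 0.29, adjusted p 0.000956). E2f1, an activator of S phase genes, rose from 10.4, 10.8 and 9.51 to 16, 17.8 and 12.8 CPM (log2 change 0.60, SE 0.11, adjusted p 0.00476). Rbl2, a pocket protein that holds cells in quiescence, went from 50.2, 49.3 and 50.9 to 32, 32 and 43.8 CPM (log2 change -0.48, SE 0.13, adjusted p 0.0273). Its call was lost without any VWAT library other than HFD replicate 3 and with the VWAT libraries alone (adjusted p up to 0.14). Hmga1, an architectural chromatin protein, rose from 6.56, 8.12 and 8.42 to 19.9, 19.9 and 12.1 CPM (log2 change 1.17, SE 0.19, adjusted p 0.00187). Replicate 3 was the HFD library nearest to SD in all 4 of these genes.

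Sterol synthesis was the enzyme list with the highest share of changes: 15 of 24 rose and none fell (median log2 change 0.59), and 18 rose without replicate 3. Cyp51, the lanosterol demethylase, went from 20.4, 24.3 and 36.4 to 138, 112 and 61.6 CPM (log2 change 1.94, SE 0.31, adjusted p 0.00175). Idi1, which makes dimethylallyl diphosphate, rose from 2.64, 4.23 and 5.58 to 19.1, 15.9 and 9.55 CPM (log2 change 1.85, SE 0.31, adjusted p 0.00228). Fdps, which makes farnesyl diphosphate, rose from 6.56, 8.7 and 12.2 to 39.4, 31.3 and 21.9 CPM (log2 change 1.75, SE 0.30, adjusted p 0.00262). In all 3 genes the SD libraries differed among themselves, SD replicate 3 being the highest, but lay below every HFD library. Of 54 enzymes of fatty acid synthesis, elongation and activation, 10 rose and 6 fell, and 6 and 10 with library size alone. Scd2, a desaturase, rose from 112, 129.7 and 129 to 224, 228 and 230.4 CPM (log2 change 0.88, SE 0.10, adjusted p 0.000793). Fasn, the fatty acid synthase, rose from 74.5, 87.4 and 88.4 to 130.4, 135 and 140.4 CPM (log2 change 0.70, SE 0.09, adjusted p 0.000925). Replicate 3 was the highest HFD library for both.

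Nucleotide and one-carbon enzymes had 20 of 74 that rose and 4 that fell, and 13 and 5 with library size alone. Rrm2, a subunit of the reductase that makes deoxynucleotides, was at 1.82, 2.65 and 2.33 CPM in SD and 9.2, 13.2 and 4.37 CPM in HFD (log2 change 1.98, SE 0.32, adjusted p 0.00203). Aldh1l2, a mitochondrial folate enzyme, rose from 2.82, 3.03 and 2.97 to 11.4, 16.5 and 5.89 CPM (log2 change 1.94, SE 0.30, adjusted p 0.00159). Of 74 amino acid and polyamine enzymes, 10 rose and 10 fell, and 8 and 14 with library size alone. Those that rose held Aldh18a1 and Pycr1 of proline synthesis, proline being a main building block of collagen, and Odc1, Srm and Sms of polyamine synthesis. Those that fell held enzymes of amino acid breakdown, such as Prodh, Aldh6a1, Ivd, Gcdh and Auh. Aldh18a1 was at 44.4, 46.5 and 42.7 CPM in SD and 78.5, 84.8 and 65.7 CPM in HFD (log2 change 0.78, SE 0.09, adjusted p 0.000793). Pycr1 rose from 8.37, 8.23 and 9.73 to 28.2, 32.5 and 18.5 CPM (log2 change 1.59, SE 0.19, adjusted p 0.000793). Prodh, which breaks proline down, fell from 1.77, 2.22 and 3.65 to 0.809, 0.401 and 1.38 CPM (adjusted p 0.0158), but not without VWAT_SD replicate 3, without VWAT_HFD replicate 1 or 2, or with the VWAT libraries alone (up to 0.0798). Odc1, the first enzyme of polyamine synthesis, rose from 104, 128 and 116 to 173, 220.5 and 160.2 CPM (log2 change 0.67, SE 0.14, adjusted p 0.0064). Srm, the spermidine synthase, rose from 36.4, 35.6 and 35.2 to 56, 65.9 and 54.4 CPM (log2 change 0.72, SE 0.12, adjusted p 0.00283). Aldh6a1, which breaks down valine, fell from 53.2, 53.2 and 59.2 to 30.01, 27 and 38.7 CPM (log2 change -0.79, SE 0.12, adjusted p 0.00133). For each enzyme given here with its levels the HFD libraries did not overlap SD, and replicate 3 was the HFD library nearest to SD.

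The list of collagen-modifying enzymes and chaperones had 22 of 38 that rose and none that fell (median log2 change 0.42), and 27 rose without replicate 3. Adamts14, which trims procollagen, was at 44.9, 50.9 and 47 CPM in SD and 76.8, 91.8 and 90.9 CPM in HFD (log2 change 0.86, SE 0.11, adjusted p 0.000869). Plod2, a lysyl hydroxylase that prepares collagen for cross-linking, rose from 93, 87.4 and 73.3 to 151, 157 and 126 CPM (log2 change 0.77, SE 0.12, adjusted p 0.00151). Pcolce, an enhancer of procollagen processing, rose from 329, 329 and 345 to 606, 654 and 466 CPM (log2 change 0.78, SE 0.13, adjusted p 0.00208). The groups did not overlap in these genes, and for Adamts14 replicate 3 lay between the other HFD libraries. Glycosaminoglycan enzymes gave 12 that rose and 3 that fell of 63. Among them Has2, a hyaluronan synthase, rose from 154, 138 and 125 to 273, 261 and 265 CPM (log2 change 0.94, SE 0.12, adjusted p 0.000855), with the 3 HFD libraries close together. Tmem2, a cell-surface hyaluronidase, rose from 5.93, 5.61 and 3.99 to 15.1, 19.9 and 9.89 CPM (log2 change 1.53, SE 0.25, adjusted p 0.00221), with replicate 3 the lowest HFD library. With library size alone, the collagen-modifying list had 15 that rose and 1 that fell, and the glycosaminoglycan list 6 and 5.

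Detoxification and antioxidant enzymes went mainly down, with 22 of 96 that fell and 6 that rose (median log2 change -0.16). The 22 included 10 glutathione transferases, whose near-identical copies can share reads, so their single values are uncertain. Gsta3 was at 17.9, 19.8 and 24.1 CPM in SD and 4.87, 3.35 and 9.12 CPM in HFD (log2 change -1.83, SE 0.28, adjusted p 0.00141). The secreted glutathione peroxidase Gpx3 was at 2100, 2325 and 2358 CPM in SD and 1380, 1121 and 1591 CPM in HFD (log2 change -0.73, SE 0.14, adjusted p 0.00521). Inmt, an indolethylamine methyltransferase, fell from 655, 672 and 864 to 129.6, 92.1 and 224 CPM (log2 change -2.30, SE 0.28, adjusted p 0.000793). In all 3 genes replicate 3 lay between the SD libraries and the other HFD libraries. Srxn1, which repairs oxidised peroxiredoxins, rose from 79.8, 93.5 and 84.2 to 177, 173 and 122 CPM (log2 change 0.87, SE 0.16, adjusted p 0.00352).

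Enzymes of fuel use and lipid breakdown gave mixed counts. Central carbon enzymes had 4 that rose and 6 that fell of 88, against 20 and 9 without replicate 3 and 1 and 11 with library size alone. Hk2, the inducible hexokinase, rose from 80.3, 82.3 and 52 to 135, 155 and 131 CPM (log2 change 0.97, SE 0.18, adjusted p 0.00356). Khk, the fructokinase, fell from 6.72, 5.88 and 8.55 to 3.93, 2.67 and 3.27 CPM (log2 change -1.10, SE 0.18, adjusted p 0.00228). Pdk4, a kinase that shuts the pyruvate dehydrogenase complex, fell from 43.7, 52.1 and 43.8 to 15.5, 14.8 and 19.9 CPM (log2 change -1.48, SE 0.20, adjusted p 0.000956). None of these 3 genes had overlapping groups. Lipe, the hormone-sensitive lipase, fell from 15.4, 19.4 and 21.6 to 9.23, 9.19 and 13.4 CPM (log2 change -0.83, SE 0.17, adjusted p 0.00708). Lipg, the endothelial lipase, rose from 6.07, 6.71 and 5.45 to 14.8, 13.2 and 12.7 CPM (log2 change 1.16, SE 0.14, adjusted p 0.000793). Lipe is also an adipocyte marker, 1 of 10 tested and the one that passed. Lpl made up most of their summed level, and the other 9 summed to 136 to 169 CPM in SD and 167, 130 and 107 CPM in HFD, with Adipoq under 1 CPM in every library. The list's median log2 change was -0.16. Their part in the Lipe result was not tested.

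The retinoid, steroid and prostanoid lists were short. Of their genes 20.8%, 23.5% and 31.2% changed, against 15.6% of all genes tested. Of 24 retinoid genes 1 rose and 4 fell, among them Dhrs3, which turns retinal back to retinol, with 76.4, 79.6 and 81.4 CPM in SD and 35.3, 33.1 and 37.5 CPM in HFD (log2 change -1.16, SE 0.12, adjusted p 0.000628). Cyp26b1, which clears retinoic acid, had 334, 77 and 217 counts in SD and 55, 23 and 33 in HFD, an SD to HFD ratio of 5.5 (4.49 to 6.79, adjusted p 0.00464), and its SD libraries were spread widely. Of 34 steroid and oxysterol enzymes 3 rose and 5 fell. Hsd11b2, which inactivates corticosterone, rose from 1.62, 2.2 and 1.48 to 8.34, 8.85 and 3.74 CPM (log2 change 1.99, SE 0.29, adjusted p 0.00133). Prostanoid and leukotriene enzymes gave 3 that rose and 7 that fell of 32, and 1 and 8 with library size alone. Ptgs2, the inducible cyclooxygenase, was at 841, 1218 and 1050 CPM in SD and 1481, 1963 and 1683 CPM in HFD (log2 change 0.72, SE 0.21, adjusted p 0.0331), but its call was lost with library size alone and without VWAT_SD replicate 1 or 3 or VWAT_HFD replicate 2 (adjusted p up to 0.15).

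**Figure D4:**
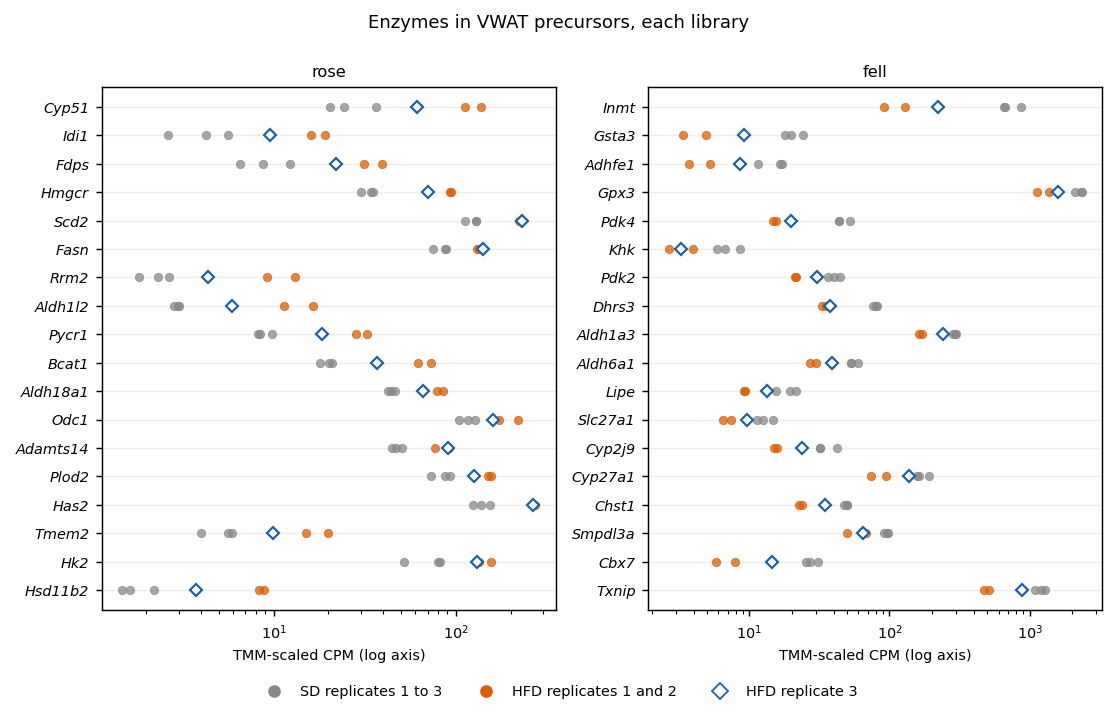
TMM-scaled CPM (log axis) of enzymes that rose (left) or fell (right), with SD in grey, HFD replicates 1 and 2 in orange and HFD replicate 3 as blue diamonds. Replicate 3 is level with the other HFD libraries for Scd2, Fasn, Has2, Khk and Dhrs3 and lies between the SD libraries and the other HFD libraries for Cyp51, Aldh1l2, Inmt, Gsta3 and Cbx7.

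Chromatin enzymes and polycomb proteins gave 18 that rose and 8 that fell of 109, and 17 and 14 with library size alone. Ezh2, the main methyltransferase of polycomb complex PRC2, rose from 8.67, 9.56 and 7.12 to 14.8, 18.4 and 11 CPM (log2 change 0.80, SE 0.16, adjusted p 0.0069). Its homologue Ezh1 was at 60.3, 60.1 and 59.3 CPM in SD and 35.1, 33.6 and 53.3 CPM in HFD (log2 change -0.56, SE 0.14, adjusted p 0.0191). Cbx7, a reader subunit of polycomb complex PRC1, fell from 27, 25.3 and 30.8 to 7.87, 5.74 and 14.5 CPM (log2 change -1.57, SE 0.24, adjusted p 0.00162). In all 3 genes replicate 3 was the HFD library nearest to SD. The Ezh1 call was lost without any VWAT library other than HFD replicate 3 and with the VWAT libraries alone (adjusted p up to 0.103), and those of Ezh2 and Cbx7 held in every alternative. Among MAP kinase phosphatases and RAS feedback proteins 7 of 40 rose and 4 fell, and 4 and 5 with library size alone. Spry1, an inhibitor of growth factor signalling, rose from 89.1, 76.5 and 86.3 to 99.5, 139 and 182 CPM (log2 change 0.74, SE 0.17, adjusted p 0.0141). Socs3, the brake on interleukin-6 family cytokines, fell from 2344, 2131 and 1507 to 1256, 952 and 1315 CPM (log2 change -0.76, SE 0.17, adjusted p 0.0111). Spry1 was highest in replicate 3 and lost its call without VWAT_SD replicate 2 or VWAT_HFD replicate 2 (adjusted p up to 0.0599). Socs3 lost its call without VWAT_HFD replicate 2 and with the VWAT libraries alone (up to 0.0648).

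All 45 mitosis genes tested rose, with a median log2 change of 3.07, and of 43 genes for DNA replication 23 rose, with none that fell (median 0.61). These lists serve here as the reference for promoter sequences and for replicate 3. Ube2c, which tags mitotic cyclins for destruction, was at 1.12, 1.12 and 1.03 CPM in SD and 13.9, 21.5 and 3.76 CPM in HFD (log2 change 3.58, SE 0.53, adjusted p 0.00141). Top2a, the topoisomerase that untangles chromosomes, was at 7.31, 10.03 and 7.05 CPM in SD and 74.7, 116 and 29.8 CPM in HFD (log2 change 3.18, SE 0.39, adjusted p 0.000793). Cdk1, the kinase that starts mitosis, was at 1.53, 2.29 and 1.24 CPM in SD and 21.1, 26.4 and 5.53 CPM in HFD (log2 change 3.40, SE 0.48, adjusted p 0.00116). Every HFD library was above every SD library in these genes, and replicate 3 was the lowest HFD library.

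Promoters of these genes are shown because genes of the G2 and M phases are known to carry a cell cycle homology region (CHR, letters TTTGAA) and CCAAT boxes just before the start site. The sequences are the 120 bases before the start site, 5′ to 3′ on the gene's strand, from RefSeq on GRCm38.p6, with CHR and CCAAT letters of either strand in capitals. They lie at chr2:164769809-164769928 (plus strand), chr11:99024190-99024309 (minus strand) and chr10:69352913-69353032 (minus strand).
Ube2c: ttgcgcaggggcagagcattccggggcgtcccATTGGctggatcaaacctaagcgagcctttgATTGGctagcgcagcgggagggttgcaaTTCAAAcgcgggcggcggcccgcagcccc
Top2a: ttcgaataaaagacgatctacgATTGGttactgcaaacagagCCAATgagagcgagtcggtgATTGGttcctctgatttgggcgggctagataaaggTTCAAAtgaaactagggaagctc
Cdk1: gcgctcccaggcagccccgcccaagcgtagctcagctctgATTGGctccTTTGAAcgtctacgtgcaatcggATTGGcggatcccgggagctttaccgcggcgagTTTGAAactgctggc
All 3 hold a CHR within 30 bases of the start site with CCAAT letters upstream of it, at 2 or more places. Over the 250 bases before each start site, TTTGAA was found on either strand in 37.5% of 40 promoters of the mitosis list and in 10.7% of 13917 promoters of all genes tested, and CCAAT in 80.0% and 34.9%. Both together were found in 32.5% of mitosis promoters, 6.32% of promoters of genes that rose, 4.55% of those that fell and 3.99% of all. E2F letters (TTTCCCGC or TTTGGCGC) were found in 15.4% of 39 promoters of the DNA replication list and 2.28% of all. Promoters were matched for 38 of the 45 mitosis genes, 34 of the 43 replication genes and 10874 of the 14266 genes tested, and a gene may have several. The matches printed do not overlap each other. A match describes letters, not binding.

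Outside the cell cycle, promoters are shown for genes of 2 metabolic branches that rose. Pycr1, of proline synthesis, holds the letters of a C/EBP-ATF element (TGATGNAA), the kind of site used in the amino acid response. Cyp51 and Idi1, of sterol synthesis, hold CCAAT letters, which are known to sit near sterol elements. The windows are again 120 bases before the start, at chr11:120643749-120643868 (minus strand), chr5:4104698-4104817 (minus strand) and chr13:8885486-8885605 (plus strand), with TGATGNAA in capitals for Pycr1 and CCAAT in capitals for the others.
Pycr1: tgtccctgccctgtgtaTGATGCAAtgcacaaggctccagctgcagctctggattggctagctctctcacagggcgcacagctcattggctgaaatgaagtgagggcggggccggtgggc
Cyp51: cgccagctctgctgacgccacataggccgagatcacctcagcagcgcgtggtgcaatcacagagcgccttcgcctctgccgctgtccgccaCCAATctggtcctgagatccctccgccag
Idi1: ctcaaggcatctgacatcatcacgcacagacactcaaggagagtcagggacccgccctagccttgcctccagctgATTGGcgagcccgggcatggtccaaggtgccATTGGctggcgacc
TGATGNAA was found in 4 of 71 promoters of the amino acid list (5.63%) and in 2.08% of all promoters. It was in 1.68% of promoters of genes that rose and 1.92% of those that fell. CCAAT was found in 80.0% of 20 promoters of the sterol synthesis list. The sterol element letters TCACNCCAC were in none of these 20 windows and in 0.977% of all. AP-1 letters (TGAGTCA) were found in 4.80% of promoters of genes that rose, 3.43% of those that fell and 3.33% of all.

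Among genes in no list, those with the largest rise at 5 CPM or more were again genes of cell division, such as Depdc1a at 0.986, 0.91 and 0.591 CPM in SD and 12.3, 15.5 and 2.3 CPM in HFD (log2 change 3.60, SE 0.53, adjusted p 0.00133). The largest falls were more varied. Reep1, an endoplasmic reticulum shaping protein, fell from 8.54, 6.24 and 11.5 to 1.85, 1.95 and 3.72 CPM (log2 change -1.81, SE 0.28, adjusted p 0.00162). Shroom3, which constricts the apical cell cortex, fell from 8.93, 9.18 and 7.61 to 2.06, 2.93 and 4.67 CPM (log2 change -1.42, SE 0.30, adjusted p 0.0079), with no overlap in either gene. The smooth muscle myosin Myh11 was at 19.8, 18.4 and 31.7 CPM in SD and 5.09, 6.46 and 14.6 CPM in HFD, and the smooth muscle leiomodin Lmod1 at 16, 19.2 and 25.1 and 5.32, 6.22 and 12.7 CPM. Both passed (adjusted p 0.0154 and 0.0197) but lost their calls without VWAT_SD replicate 3 or VWAT_HFD replicate 1 or 2 (up to 0.0862 and 0.1). Myh11 also lost it with the VWAT libraries alone, and Lmod1 without VWAT_SD replicate 2 and in DESeq2's Wald test. Of 10 mural cell markers tested, 2 fell (Myh11 and Abcc9) and 3 rose (Tagln, Cspg4 and Notch3), and with library size alone 2 fell and 2 rose. The Cspg4 call was lost in 10 of 20 alternatives (adjusted p up to 0.212), that of Notch3 in 3 (up to 0.117) and that of Abcc9 in 1 (0.0629). The 10 mural markers summed to 136 to 164 CPM in SD and 127 to 168 CPM in HFD, and the part of mural cells in these results was not tested.

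HFD replicate 3 was compared with the other HFD libraries with genes that passed in the fit without it, so that its own values did not choose them, though the values of the other HFD libraries did. Its response is the log2 difference from the SD mean, given as a share of the mean difference in replicates 1 and 2. Over 4245 such genes the median share was 0.342, 80.5% moved in the same direction, and 65.1% lay beyond all 3 SD libraries. The share was alike for genes that rose (0.355) and fell (0.329). Over the 322 of these genes with at least 5 CPM and a 2-fold change, the share was 0.428, with 93.8% in the same direction and 84.5% beyond SD. Taken against the other HFD libraries, replicate 3 among them, replicate 1 had a median share of 0.985 over 1320 genes and replicate 2 of 1.44 over 757. Genes and reference libraries thus differ from those for replicate 3, and the shares are not on a common scale. Markers of several other cell types were lower in replicate 3, though not in every list. Replicate 3 had the lowest level of the 6 libraries for 12 of 16 leukocyte, 10 of 16 endothelial, 5 of 7 mesothelial, 4 of 10 mural, 4 of 10 adipocyte, 3 of 5 skeletal muscle and 4 of 4 erythroid markers, and for 0 of 7 Schwann cell markers. It was also lowest for 4 of 17 precursor and gate markers, and the share over all genes was not counted. Leukocyte markers summed to 12.1 CPM there against 20 and 19.1 CPM in HFD replicates 1 and 2, mural markers to 127 against 140 and 168 CPM, and erythroid markers to 1.61 against 11.3 and 11.8 CPM. Without Tek, endothelial markers summed to 12.2 CPM against 55.7 and 36.6 CPM. Without Wt1, mesothelial markers summed to 2.09 CPM against 3.2 and 7.95 CPM, and without Lpl, adipocyte markers to 107 CPM against 167 and 130 CPM. With Wt1 the mesothelial sum was 122 CPM against 108 and 106 CPM, and with Lpl the adipocyte sum was 1450 CPM against 1500 and 1360 CPM. Schwann cell markers without Pmp22, their most abundant, summed to 148 CPM against 117 and 139 CPM. The part of these cells in the weaker response was not tested.

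**Figure D5:**
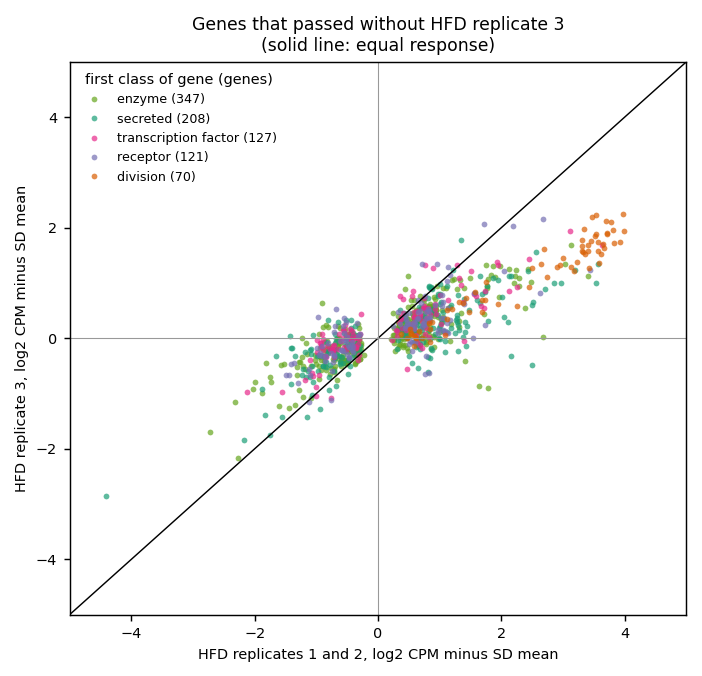
Log2 CPM minus the SD mean in HFD replicate 3 (vertical) against the mean of HFD replicates 1 and 2 (horizontal), for 873 genes of the lists that passed without replicate 3; colours give the first class of each gene and the solid line marks an equal response. Most points lie between the horizontal zero line and the solid line, and the division genes at the right lie below the solid line, with a median share of 0.444.

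The median share of the response in replicate 3 differed between the lists. Many lists are short, and these differences were not tested. Median shares in replicate 3 were 0.711 for 7 integrins, 0.696 for 19 sterol synthesis enzymes, 0.686 for 13 MAP kinase phosphatases and RAS feedback proteins, 0.661 for 12 STAT, IRF, NF-kB and NFAT factors, and 0.629 for 20 fatty acid enzymes. Mitosis genes had a share of 0.467 over 45 genes, all beyond the SD libraries, and collagens 0.576 over 22. At the low end were 29 central carbon enzymes (0.145), 10 elastic fibre proteins (0.131), 8 guidance molecules (0.013) and 9 cyclic nucleotide enzymes (-0.0053). By class, the shares were 0.359 for 208 secreted factors, 0.399 for 122 receptors, 0.407 for 127 transcription factors, 0.439 for 352 enzymes and 0.444 for 78 division genes. Replicate 3 reached at least the nearer of the other HFD libraries in 12.5%, 12.3%, 17.3%, 13.4% and 0% of them. Over all genes that passed without replicate 3, this was 10.9%.

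Single genes show both ends. Ret had a share of 1.2, Heyl of 1.72, Nfatc2 of 1.42, Id2 of 1.42 and Igfbp3 of 0.998. Jun, an AP-1 subunit, was at 3781, 4298 and 3986 CPM in SD and 1846, 2371 and 3767 CPM in HFD, a share of 0.0981, and did not pass with all libraries (adjusted p 0.0574). Hsd11b1, which activates corticosterone, was at 164, 171 and 176 CPM in SD and 103, 92.2 and 196 CPM in HFD, so that replicates 1 and 2 were low and replicate 3 was above all SD libraries. Mfap4, a microfibril protein, was at 88.6, 64.1 and 72.6 CPM in SD and 179, 218 and 80.7 CPM in HFD, with replicate 3 inside the SD range. It passed with all libraries (adjusted p 0.0481), but not in 14 of 20 alternatives, among them leaving out any VWAT library other than HFD replicate 3 (up to 0.227). These genes were picked after their values were seen.

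No gene passed the test of a different diet effect in VWAT and SWAT precursors in edgeR (0%, lowest adjusted p 0.205), while 1026 had an unadjusted p under 0.05 and DESeq2's Wald test called 35. Without VWAT_HFD replicate 3, edgeR called 135. Ret changed by 1.83 in VWAT and 0.69 in SWAT (log2; unadjusted p of the difference 0.000106), Lif by 1.02 and 0.03 (p 0.00042), Tslp by 0.91 and -0.15 (p 0.000557), and Heyl by 0.98 and -0.50 (p 0.000371). The adjusted p of each of these differences was 0.452. Col3a1 changed by 1.23 and 1.23 (p 0.989) and Csf2 by 2.42 and 2.27 (p 0.815). A difference between depots was therefore not shown for any of these genes with all libraries.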

How the data were processed

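RNA was sequenced from 12 pools of sorted adipocyte precursors, 3 libraries in each of 4 groups of depot and diet. The labels' protocols give a strand-marking dUTP library of poly(A) RNA and 75 bp reads. Whole-number counts per gene symbol were made by the authors; the submitters' processing notes name TopHat, HTSeq and the build mm9, with no versions; the sources used here give no strand setting. Neither library sizes nor tests included the 3 entries that name no gene.

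Counts were fitted with edgeR 4.0.16 (quasi-likelihood, TMM scaling, filterByExpr, R 4.3.3) on all 12 libraries, which share 1 estimate of spread. The diet effect in VWAT was tested over all genes, with Benjamini-Hochberg adjustment and a threshold of 0.05. SEs are on the log2 scale, and log2 CPM used a prior count of 2. The code was tested on simulated data. Alternatives were DESeq2 1.42.0, limma 3.58.1 (voom), other scalings and filters, the VWAT libraries alone, a replicate block, and leaving out each library.

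The gene lists and members were chosen with earlier results of these data known. Named genes had a mean of at least 5 CPM in the higher group, no overlap of the groups, and were the 3 largest changes per list and direction or the 12 largest per direction outside the lists. The 5 genes with the lowest p in each class were added without these conditions. Outside this rule, Abcc9, Artn, Auh, C3, Cd14, Cdk1, Cebpa, Col4a1, Col4a2, Col6a3, Cspg4, Cxcl1, Cyp26b1, E2f1, Ezh2, Fasn, Gdnf, Gfra1, Gfra2, Gcdh, Gfra4, Gpx3, Grem1, Has2, Hsd11b1, Il1rl1, Jun, Lpl, Mfap4, Nfkb1, Nfkb2, Odc1, Plod2, Pparg, Prodh, Rela, Relb, Sms, Srm, Tagln, Tek and Wt1 were named after their values were seen. Adipoq, Cd24a, Pecam1 and Ptprc check the sort. Glutathione transferases and Tnfrsf23 have close copies with which reads may be shared. Promoters came from RefSeq on GRCm38.p6, matched by symbol.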

Additional observations from a re-analysis of the deposited data

How the results depend on the processing

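Among the 254 genes of the naming rule, 133 kept their call in every alternative run and none changed direction. The other calls were lost mostly without VWAT_HFD replicate 2 (121), VWAT_SD replicate 3 (92) or VWAT_HFD replicate 1 (77). Without VWAT_HFD replicate 3, 1 call was lost. Each of these runs leaves 2 libraries in a group, and the part of group size in the losses was not tested. Leaving out 1 library at a time gave 757 to 4266 changed genes (493 to 2137 rose, 264 to 2129 fell), 51 to 212 secreted factors, 27 to 122 receptors, 32 to 128 transcription factors and 91 to 353 enzymes that changed, and 0 to 135 genes with a depot difference. The lowest count of each but the last came without VWAT_HFD replicate 2 and the highest without VWAT_HFD replicate 3. Library size alone gave 799 that rose and 1822 that fell. The 6 VWAT libraries alone gave 1246 changed genes (788 rose, 458 fell), with 93 secreted factors, 44 receptors, 48 transcription factors and 151 enzymes, from fewer samples to estimate the spread. DESeq2's Wald test called 35 depot differences, and its cause was not tested. Over genes with at least 5 CPM and a 2-fold change, the share of the response was 1.1 in VWAT_HFD replicate 1 and 0.428 in replicate 3. Each was taken against the other HFD libraries and over its own genes.

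Same-numbered VWAT libraries of the 2 diets did not deviate together (correlations -0.0174, 0.027 and 0.0669 across genes), so the numbers were not taken as pairs. Same-numbered VWAT and SWAT libraries correlated at 0.177, 0.178 and 0.398 in SD and at -0.0754, 0.184 and 0.0698 in HFD; the fit treats them as independent, which bears on the depot difference. A replicate block gave 2279 changed genes (1250 rose, 1029 fell), 1 depot difference, and lost 13 of the 254 named calls. Genes with few counts, such as Gdnf, are limited by depth.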
